A study of Homo sapiens with 46 samples.

Results

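RNA of the nucleus fraction was compared between endoderm cells and the human pluripotent stem cells (hPSC) they were made from. The 6 libraries, 3 of endoderm nucleus and 3 of hPSC nucleus, were chosen by their sample labels alone and are part of 46 libraries from 4 cell types and 4 fractions. Both groups come from H1, an established human embryonic stem cell line that is grown as a pluripotent culture. The hPSC group was kept in mTeSR1 medium on Matrigel. The endoderm group was grown in RPMI medium with 0.5% FBS, WNT3A and 100 ng/ml activin A and was collected after 5 days. Both groups were fractionated in the same way: cells were opened with 0.05% NP-40 in a buffer with the RNA polymerase inhibitor α-amanitin, and the pellet that remained was washed and taken as nucleus. Nothing in the labels says whether replicates of a group were separate cultures, so p-values measure the spread between these libraries, which may be technical.

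Activin A binds the receptors of Nodal, a secreted factor of the TGF-beta family, and the SMAD proteins these receptors act on switch on endoderm genes such as SOX17, FOXA2 and EOMES. WNT3A acts through beta-catenin, and a WNT signal together with activin is the usual way to lead pluripotent cells through a primitive-streak state into definitive endoderm, the layer that later forms gut, liver and pancreas. A nuclear pellet made with a mild detergent keeps the outer nuclear membrane and rough endoplasmic reticulum (ER) attached to it, so mRNAs translated on the ER, which encode membrane and secreted proteins, are part of such a fraction.

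The libraries held 11933879 to 15767053 counts. Each cell type was quantified on a transcript set of its own, so counts were summed per Ensembl gene and the sets joined: 11760 genes stood in both, 1884 in the endoderm table alone and 3355 in the hPSC table alone. Of the 11413 joined genes tested with edgeR, 5848 had an adjusted p under 0.05, which is 51.2% of the genes; 2987 (26.2%) rose and 2861 (25.1%) fell in endoderm. A change of at least 2-fold was called for 32.6% of the genes. For 65.0% of the genes the 2 groups of 3 libraries did not overlap. Levels per library are given as CPM after TMM scaling (counts relative to a library size that is corrected for composition), and changes are log2 values, endoderm minus hPSC. Scaling on total counts in place of TMM lowered the median change of all genes by 0.42 and gave 1609 rises and 3750 falls (30.0% rises in place of 51.1%), so small changes of either sign are relative to the scaling. Endoderm replicate 1 stood apart: its log2 CPM correlated with the other endoderm libraries at r = 0.955 and 0.963 across genes, which are not independent replicates, against 0.986 to 0.992 for other pairs of a group, and its TMM factor was 0.672 against 0.948 to 1.20 in the others. Without it 7215 genes were called, 3543 rises and 3672 falls. Mitochondrially encoded RNA took 16.1%, 8.09% and 10.5% of the counts in endoderm replicates 1, 2 and 3, and 12.9%, 13.1% and 15.1% in the hPSC libraries (difference of means -2.12 percentage points, two-sided exact permutation p = 0.5, where 3 against 3 cannot go below 0.10). Its part in the results was not tested; leaving these genes out before scaling gave 5853 calls.

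The defining transcription factors of definitive endoderm were listed in the endoderm table and not in the hPSC table, so they have a level and no fold change. All 9 endoderm markers checked (SOX17, FOXA2, GATA4, GATA6, EOMES, CXCR4, CER1, GSC and HHEX) were listed in endoderm, with a summed level of 200.3 to 247 TPM per library (the authors' length-corrected share of a library, computed on each cell type's own transcript set). SOX17, an HMG-box factor that specifies endoderm, had 55.0, 56.3 and 66.5 TPM in replicates 1, 2 and 3. GATA4, a zinc finger factor of endoderm and heart, had 57.1, 59.0 and 63.1 TPM, and the pioneer factor FOXA2 35.1, 38.1 and 41.2 TPM. These 3 factors had similar TPM in the 3 libraries. TPM is not corrected for composition, and the TMM factor of replicate 1 was 0.672 against 0.997 and 0.948 in replicates 2 and 3. Whether replicate 1 stood apart in these factors after such a correction was not tested. EOMES, the T-box factor that works upstream of SOX17, had 10.3, 13.2 and 17.0 TPM, and the chemokine receptor CXCR4, a surface marker used to sort endoderm, had 26.3, 20.7 and 28.7 TPM. GSC, an organizer gene, was low, with 0.310, 1.42 and 1.54 TPM, lowest in replicate 1.

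Some genes of gut and liver were listed in endoderm alone as well, but few of the liver list were: of 23 later endoderm and liver markers, 4 stood in the endoderm table alone, 3 in the hPSC table alone (RBP4, ONECUT1 and TFPI), 3 in both and 13 in neither. HNF4A, a nuclear receptor of liver and gut, had 28.7, 29.4 and 35.4 TPM. The gene with a symbol and the highest mean count among those of the endoderm table alone was APOA1, the main protein of high-density lipoprotein, with 17833, 12669.6 and 13659 TPM. It was followed by a ribosomal RNA entry labelled 5_8S_rRNA, whose TPM ran from 3979 in replicate 1 to 53786 in replicate 2, and by FGFR3, FAM20A, SMAD6 and APLNR. FGFR3, a receptor of fibroblast growth factors, had 324, 339 and 438 TPM. APLNR, a receptor of migrating mesendoderm cells, had 120.5, 73.1 and 97.4 TPM, and SMAD6, an inhibitor of BMP signalling, 72.0, 95.7 and 131 TPM. In all, 18 of the 32 genes of the endoderm regulator list stood in the endoderm table alone, 8 in both, 1 in the hPSC table alone and 5 in neither.

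The pluripotency gene SOX2 stood in the hPSC table alone, with 189, 209 and 204 TPM in the hPSC nucleus libraries. Next to it stood FGF2, the growth factor that keeps hPSC undifferentiated, with 25.3, 29.5 and 26.0 TPM and FOXD3, a forkhead repressor of pluripotent cells, with 19.7, 21.0 and 22.3 TPM. SOX3, a relative of SOX2, stood in the hPSC table alone too. Genes with a symbol and the highest mean counts there included the mitochondrial tRNA genes MT-TP and MT-TW, SOX2, NFE2L3 and H1-10. A gene of 1 table may have been dropped from the other transcript set or be absent from those cells; which of these applies was not tested. Genes of 1 table took 2.50% of the endoderm and 3.52% of the hPSC nucleus counts.

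**Figure D1:**
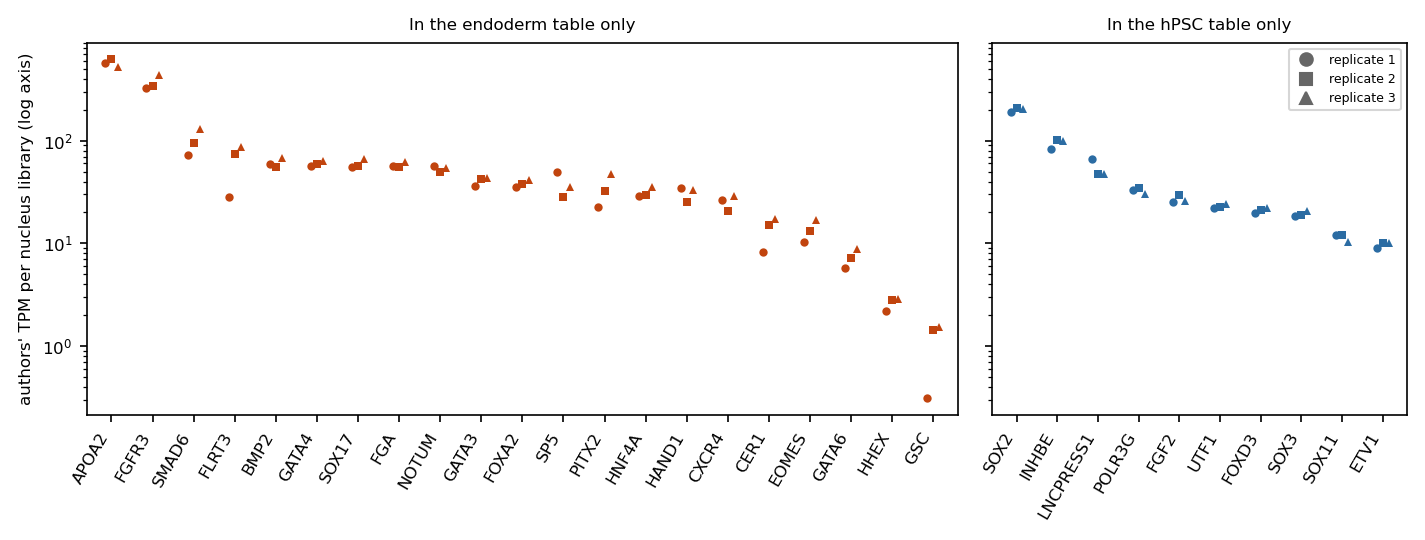
Level of selected genes that stand in 1 table only, as the authors' TPM on a log axis, 1 point per nucleus library with the shape giving the replicate. SOX17, GATA4 and FOXA2 lie between 35.1 and 66.5 TPM in the 3 endoderm libraries, and SOX2 between 189 and 209 TPM in the 3 hPSC libraries.

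Most genes of the pluripotency list fell in endoderm nucleus, while the calls of POU5F1 and LIN28A depended on the setting. Of 34 genes, 25 were tested and 9 stood in the hPSC table alone. Among the 25, 18 fell and 1 rose, where 25.1% of all genes fell and 26.2% rose. The median change was -1.63 against -0.02 over all genes. Without endoderm replicate 1, 21 fell and 2 rose. Counting only transcripts found in both tables, 14 of 23 fell and 2 rose, with a smaller median of -0.67. POU5F1 (OCT4), the factor whose loss ends pluripotency, had 663, 561 and 577 CPM in the endoderm libraries and 1185, 730.0 and 877 CPM in the hPSC libraries. Every endoderm library was below every hPSC library, yet the adjusted p was above 0.05 (log2 change -0.63, SE 0.24, adjusted p = 0.053). POU5F1 passed as a fall without endoderm replicate 1 (-0.71, adjusted p = 0.0044), under total-count scaling (-1.07, adjusted p = 0.0063) and with DESeq2 (-0.62, adjusted p = 0.015). LIN28A, which blocks let-7 microRNAs, had 1196, 770.5 and 911 CPM in the endoderm libraries and 1432, 1031 and 1175 CPM in the hPSC libraries. Its groups overlapped (-0.34, adjusted p = 0.29), but it too passed as a fall without endoderm replicate 1 (-0.53, adjusted p = 0.016) and under total-count scaling (-0.80, adjusted p = 0.0078). NANOG had 12.6, 21.6 and 22.0 CPM in the endoderm libraries and 52.1, 36.5 and 43.9 CPM in the hPSC libraries and fell (log2 change -1.23, SE 0.25, adjusted p = 0.0031); on transcripts found in both tables its change was -0.62 with an adjusted p of 0.15. ZFP42 (REX1) and SALL4, a zinc finger partner of POU5F1, fell by 0.62 and 0.50 on the log2 scale. These 2 calls were not firm: that of SALL4 was lost without endoderm replicate 2 (adjusted p = 0.086) and without any single hPSC library (adjusted p = 0.086 to 0.11), and that of ZFP42 without hPSC replicate 1 or 3 (adjusted p = 0.054 and 0.063).

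Larger falls than that of NANOG were found in other genes of the undifferentiated state. DPPA4, a chromatin protein of early embryonic cells, had 93.7, 148 and 148 CPM in the endoderm libraries and 574, 523 and 551 CPM in the hPSC libraries. It fell (log2 change -2.08, SE 0.23, adjusted p = 8.7e-05), with endoderm replicate 1 lowest. The de novo methyltransferase gene DNMT3B had 477, 313 and 429 CPM in the endoderm libraries and 1709, 1640.0 and 1737 CPM in the hPSC libraries, with a change of -2.06. TDGF1 (CRIPTO), the membrane-bound co-receptor of Nodal, had 140.1, 161 and 179 CPM in the endoderm libraries and 583, 606 and 668 CPM in the hPSC libraries, with a change of -1.95. None of these groups overlapped. The largest falls of the list were TERF1, a telomere-binding protein (15.2, 30.2 and 20.6 against 450.0, 544 and 449.9 CPM, log2 change -4.45), the deubiquitinase gene USP44 (-4.17), the hPSC-specific noncoding RNA ESRG (-3.61) and TRIM71, a let-7 target (-3.39). For USP44 the fall depended on the transcripts counted, since those found in both tables gave -0.02. CD24 changed sign in the same way, from -1.63 to 4.35. GAL, which encodes the peptide galanin, was the gene of the list that rose (208, 115 and 108 against 35.3, 34.5 and 36.8 CPM, log2 change 2.01). The summed level of 7 hPSC markers was 913 to 1165 TPM in endoderm, where SOX2 was not listed, and 2055 to 2847 TPM in hPSC. In bulk RNA, fewer cells that hold a transcript and less of it per cell cannot be told apart.

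NODAL and the secreted and receptor-level inhibitors LEFTY1, LEFTY2, FST, SMAD7 and BAMBI rose, while the nuclear repressor genes SKI, TGIF1 and TGIF2 did not pass the test and SKIL fell. In the pathway list 12 of 25 tested genes rose and 4 fell, where 26.2% of all genes rose and 25.1% fell. The median change of the list was 0.59. Without endoderm replicate 1 the same number rose, 7 fell and the median was 0.18, where 3543 of all 11480 genes rose and 3672 fell. Under total-count scaling 10 rose and the median was 0.087, where 1609 of all 11413 genes rose and 3750 fell. Among the ligands, NODAL had 89.1, 57.7 and 60.5 CPM in the endoderm libraries and 2.52, 2.43 and 2.28 CPM in the hPSC libraries. It was higher in each endoderm library than in any hPSC library, highest in replicate 1 (log2 change 4.84, SE 0.25, adjusted p = 1.1e-06). Its change was 2.50 in cytoplasm, and the difference between the fractions passed the test (adjusted p = 7.8e-04). The proprotein convertases that cut Nodal's precursor, FURIN and PCSK6, rose by 2.93 and 2.92. The ligand gene INHBE stood in the hPSC table alone, with 83.2, 102.1 and 100.3 TPM. Among the receptors, the type I receptor gene ACVR1B rose (1.22) and the type II receptor gene ACVR2B fell (-1.45). The co-receptor gene TDGF1 fell too. Among the intracellular effectors SMAD3 rose (0.79), SMAD4 fell (-1.02), and FOXH1, which brings SMADs to DNA, did not pass the test (0.59, adjusted p = 0.099). Under total-count scaling SMAD3 no longer passed (0.38, adjusted p = 0.23). With limma on TPM plus 1, ACVR2B (-0.49, adjusted p = 0.17), SMAD4 (-0.34, adjusted p = 0.40) and SMAD3 (0.47, adjusted p = 0.14) did not pass.

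The inhibitors BAMBI, SMAD7, LEFTY1 and FST had the largest rises of the list after NODAL. LEFTY1, a secreted antagonist of Nodal, had 13.3, 5.04 and 6.96 CPM in the endoderm libraries and 0.441, 0.485 and 0.934 CPM in the hPSC libraries. Its change of 3.72 was accompanied by 1.84 for LEFTY2, both at low levels. LEFTY2 lost the call without hPSC replicate 3 (adjusted p = 0.052). FST, the activin-binding protein follistatin, had 255, 277 and 262 CPM in the endoderm libraries and 26.5, 26.6 and 27.2 CPM in the hPSC libraries. SMAD7, which blocks the type I receptors, had 59.5, 63.6 and 69.0 CPM in the endoderm libraries and 4.28, 4.02 and 4.90 CPM in the hPSC libraries. BAMBI, a decoy receptor without kinase activity, had 401, 309.6 and 331 CPM in the endoderm libraries and 13.2, 17.5 and 16.6 CPM in the hPSC libraries. The libraries of each group were close to one another in FST, SMAD7 and BAMBI, and the changes were FST 3.31, SMAD7 3.86 and BAMBI 4.46 (adjusted p = 1.1e-06, 9.7e-07 and 8.9e-07). The repressor gene SKIL fell (-0.98), but lost the call without hPSC replicate 1 or 2 (adjusted p = 0.051 and 0.082) and on transcripts found in both tables (0.089). Of the endoderm regulators in both tables, the homeobox gene MIXL1 (5.78), the homeobox gene LHX1 (4.12), PRDM1 (4.38), the epithelial factor ELF3 (1.54) and FOXA3 (0.95) rose, and OTX2 (-1.42) and SOX4 (-1.05) fell. FOXA3 lost the call under total-count scaling (0.46, adjusted p = 0.089) and without hPSC replicate 1 or 2 (adjusted p = 0.052 and 0.063).

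In the WNT pathway list 11 of 27 tested genes rose and 9 fell, where 26.2% of all genes rose and 25.1% fell. The list moved in both directions, with a median of -0.04. The sign of that median depended on the setting: it was 0.24 without endoderm replicate 1, -0.38 under total-count scaling and 0.97 on transcripts found in both tables, where 9 of 19 rose and 4 fell. Genes for making and releasing WNT ligands rose. WLS, the carrier that takes WNT proteins to the cell surface, had 1457, 880.0 and 989.6 CPM in the endoderm libraries and 5.86, 7.00 and 6.59 CPM in the hPSC libraries. It was among the largest rises of the list (log2 change 7.42, adjusted p = 6.0e-07), and PORCN, which acylates WNT proteins, rose by 2.38. The ligand gene WNT3 rose from 1.20, 0.693 and 1.17 CPM in hPSC to 23.4, 24.1 and 28.9 CPM in endoderm, with no overlap (4.62). Among the receptors FZD4 (3.71) and the non-canonical receptor ROR2 (3.80) rose and FZD5 (-1.84) fell. The secreted WNT antagonist FRZB rose (3.54), while its relatives SFRP1 (-2.05) and SFRP2 fell; SFRP1 had 380.1, 299.7 and 365 CPM in the endoderm libraries and 1348, 1443 and 1537 CPM in the hPSC libraries. The ubiquitin ligase genes RNF43 and ZNRF3, which remove Frizzled receptors from the membrane, moved in opposite directions (3.64 and -2.01). LGR4, a receptor for R-spondins, fell (-1.23), with 16.5, 57.4 and 58.6 CPM in endoderm and 81.8, 121 and 108 in hPSC, and lost the call without any single hPSC library. TCF7, a DNA-binding partner of beta-catenin, rose (5.80) from under 1 CPM in hPSC. Genes of the list that stood in endoderm alone included NOTUM, which removes the lipid from WNT proteins (56.6, 49.2 and 54.7 TPM), and the WNT target SP5 (49.8, 28.4 and 35.3 TPM).

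In the FGF list 8 of 20 genes rose and 5 fell, where 26.2% of all genes rose and 25.1% fell. The ligand gene FGF17 had 95.6, 53.2 and 46.8 CPM in the endoderm libraries and 0.0630, 0.485 and 0.583 CPM in the hPSC libraries, a change of 7.39. The receptor gene FGFR4, which serves FGF19 in liver, had 2066, 1043 and 1055 CPM in the endoderm libraries and 149, 192 and 176 CPM in the hPSC libraries. Replicate 1 was the highest endoderm library, and each of the 3 was above all hPSC libraries (log2 change 3.01, SE 0.33, adjusted p = 7.3e-05). FGFR1 rose by 1.62, at the higher level of 3842, 2654 and 3191 CPM in endoderm. The feedback inhibitors of FGF signalling were split: SPRY2 (1.06) and DUSP4 (1.26) rose, SPRY1 (-1.28) and DUSP6 (-1.02) fell.

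The BMP ligands and targets that stood in both tables were higher: 9 of 13 tested genes of the BMP list rose and 1 fell, with a median of 1.19. Over all genes 26.2% rose and 25.1% fell. Of the 24 genes of the list, 3 stood in the endoderm table alone, 1 in the hPSC table alone and 7 in neither. BMP4 had 198, 148 and 153 CPM in the endoderm libraries and 3.72, 2.84 and 3.33 CPM in the hPSC libraries, a change of 5.65 (adjusted p = 5.1e-07), and BMP7 rose by 1.07. The standard targets of BMP signalling, ID1, ID2 and ID3, which block the DNA binding of bHLH factors, rose by 2.72, 2.32 and 1.93. Their relative ID4 stood in the hPSC table alone, with 4.76, 3.85 and 3.91 TPM, and so has no fold change. ID1 had 651, 574 and 526 CPM in the endoderm libraries and 87.6, 81.8 and 95.4 CPM in the hPSC libraries, with the groups well apart. The BMP target MSX2, a homeobox gene, was under 1 CPM in every hPSC library and had 72.9, 55.8 and 55.3 CPM in endoderm. The receptor gene BMPR1A fell (-0.84) in nucleus, while its cytoplasm change was 0.69 (adjusted p = 0.015); the difference between the fractions passed the test (adjusted p = 0.003). In nucleus BMPR1A did not pass on transcripts found in both tables (-0.58, adjusted p = 0.085) or without hPSC replicate 2 (adjusted p = 0.063). BMP2 stood in the endoderm table alone, with 59.3, 55.2 and 67.8 TPM.

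Extracellular matrix and adhesion genes rose for the most part: 27 of 35 tested genes of that list rose and 2 fell, with a median change of 1.92. Over all genes 26.2% rose and 25.1% fell. Under total-count scaling 22 rose and 3 fell, without endoderm replicate 1 28 and 3, and of 28 tested on transcripts found in both tables, 20 and 1. FN1, the matrix glycoprotein fibronectin, had 50119.6, 30716 and 37237 CPM in the endoderm libraries and 389, 521 and 437 CPM in the hPSC libraries. It rose 87.7-fold by the group means (log2 change 6.45, SE 0.49, adjusted p = 8.0e-06) and reached 5284 TPM on average in endoderm nucleus. Basement membrane genes rose with it. COL4A1 had 4692, 3810.0 and 4859.6 CPM in the endoderm libraries and 291, 387 and 323 CPM in the hPSC libraries, and COL4A2, whose product joins that of COL4A1 in the collagen IV trimer, had 7496, 3354 and 3919 CPM in the endoderm libraries and 398, 544 and 477 CPM in the hPSC libraries. In COL4A2 endoderm replicate 1 stood above the others, and in COL4A1 the endoderm libraries were close; no endoderm library of either gene overlapped an hPSC library (3.74 and 3.38, adjusted p = 9.7e-06 and 1.0e-04).

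The pair COL4A1 and COL4A2 is read from opposite strands, and the 126 bases between their first transcribed bases are upstream of both. They are shown because this stretch is shared by both genes of the trimer that rose together (chr13:110307158-110307283, GRCh38.p14, RefSeq, plus strand, with the CCAAT box in capitals; COL4A1 starts on the left and runs to the left, COL4A2 starts on the right).
COL4A1 and COL4A2: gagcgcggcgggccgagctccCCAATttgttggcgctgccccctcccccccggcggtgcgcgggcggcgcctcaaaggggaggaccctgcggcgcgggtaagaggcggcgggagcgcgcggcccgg
CCAAT, on either strand, stands in 32.0% of all promoter windows of 250 bases before a start, so it is common. The other type IV chain genes listed, COL4A5 (2.14) and COL4A6 (4.09), rose too. COL18A1, a basement membrane collagen, had 23195, 10006 and 11388 CPM in the endoderm libraries and 1274, 1791 and 1566 CPM in the hPSC libraries. The laminin chain genes LAMA1 and LAMB1 rose by 2.55 and 2.35, the perlecan gene HSPG2 by 2.53 and the collagen-binding protein gene SPARC by 1.98. The list had 2 falls. ITGA6, an integrin chain that binds laminin, had 30.2, 62.4 and 65.1 CPM in the endoderm libraries and 316, 472 and 408 CPM in the hPSC libraries (log2 change -2.92, SE 0.31, adjusted p = 7.0e-05), and the nidogen gene NID1 fell by 1.11. The fibronectin receptor gene ITGA5 rose by 3.22. Cadherins differed from each other: CDH2 (N-cadherin) had 545, 618 and 666 CPM in the endoderm libraries and 67.9, 82.0 and 73.2 CPM in the hPSC libraries and rose by 3.04, and CDH1 (E-cadherin) had 1202, 871 and 1037 CPM in the endoderm libraries and 969, 1209.8 and 1150.4 CPM in the hPSC libraries, with overlapping groups (-0.10, adjusted p = 0.74), but passed as a fall under total-count scaling (-0.54, adjusted p = 0.019). SNAI1, a repressor of CDH1 (1.73), and the intermediate filament gene VIM (1.92) rose.

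**Figure D2:**
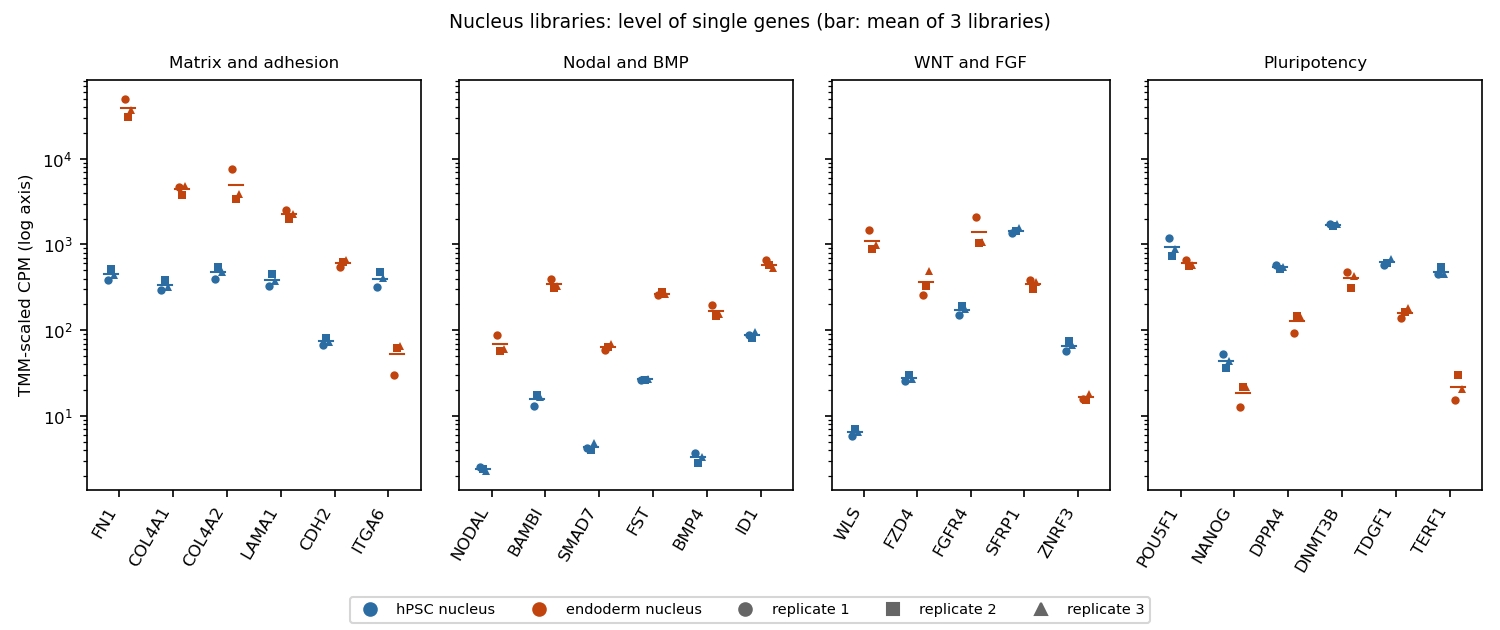
TMM-scaled CPM of single genes in each nucleus library, on a log axis, with the shape giving the replicate and the bar the mean of 3 libraries. FN1, NODAL and WLS lie far above hPSC in all 3 endoderm libraries, TERF1 and ITGA6 lie below it, and the POU5F1 values of the groups lie close to each other.

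Genes for protein entry into the ER and folding there moved in part: 13 of 39 rose and 5 fell, with a median of 0.29. Of all genes 26.2% rose and 25.1% fell. Under total-count scaling 10 of the list rose and 8 fell with a median of -0.14, so its sign depends on the scaling. Both lumen chaperones and parts of the translocation channel were among the rises, while the lumen chaperone genes HSP90B1, PDIA3 and DNAJB11 did not pass the test. The channel genes SEC61B and SEC61G and the channel-associated gene SSR3 did not pass either. HSPA5 (BiP), the ER's HSP70 chaperone, had 3413, 3185 and 2838 CPM in the endoderm libraries and 962, 1293 and 1145 CPM in the hPSC libraries. Its groups were apart (log2 change 1.47, SE 0.26, adjusted p = 0.0014). CALR, the calcium-binding lectin chaperone calreticulin, had 5641, 3643 and 3766 CPM in the endoderm libraries and 1614, 1881 and 1988 CPM in the hPSC libraries, and P4HB, a disulfide isomerase that is also a subunit of the enzyme that hydroxylates collagen, had 4749, 2329.8 and 2581 CPM in the endoderm libraries and 951, 1131 and 1135 CPM in the hPSC libraries. Endoderm replicate 1 was the highest library in each of these 3 genes, and the change of CALR was 1.25 and that of P4HB 1.59. PDIA4 (1.24), HYOU1 (1.08), the translocation channel gene SEC61A1 (1.37) and the channel-associated genes SSR2 (1.47) and SSR4 (1.04) rose as well; HYOU1 lost the call without hPSC replicate 1 (adjusted p = 0.065). SEC62 (-1.35) and SEC63 (-1.10), partners of the channel for post-translational import, and SRP72 (-1.17), a protein of the signal recognition particle, fell; all 3 had cytoplasm changes above 0 (0.35, 0.68 and 0.37), and the difference between the fractions passed the test in each (adjusted p = 0.0024, 0.0018 and 0.0031).

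Promoters of this list were searched for the ER stress element (CCAAT, any 9 bases, then CCACG), the site bound by ATF6 together with NF-Y when unfolded proteins build up. RefSeq windows (GRCh38.p14) were at hand for 34 of the 39 genes, and the 250 bases before the start were read on both strands. The element stood in 6 of the 34, and in 26 of all 35116 windows (0.0740%). The matches are shown to set the sequence beside the change, with the element in capitals and 15 bases on each side: HSPA5 at chr9:125241376-125241424, minus strand; CALR at chr19:12938369-12938417, plus strand, where the element is on the opposite strand and reads as CGTGG, any 9 bases, then ATTGG; PDIA6 at chr2:10812838-10812886, minus strand; CANX at chr5:179698763-179698811, plus strand; XBP1 at chr22:28800588-28800636, minus strand.
HSPA5: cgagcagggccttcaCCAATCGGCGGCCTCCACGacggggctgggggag
CALR: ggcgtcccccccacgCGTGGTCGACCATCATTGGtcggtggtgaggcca
PDIA6: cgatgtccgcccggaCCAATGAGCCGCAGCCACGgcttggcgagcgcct
CANX: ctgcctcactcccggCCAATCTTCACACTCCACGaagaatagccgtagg
XBP1: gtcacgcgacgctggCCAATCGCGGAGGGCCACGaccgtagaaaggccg
HSP90B1 held 2 matches, at chr12:103930201-103930354. The genes with the element did not move as one: HSPA5 (1.47), CALR (1.25) and PDIA6 (0.69) rose, while CANX (-0.32), HSP90B1 (0.15) and XBP1 (0.39) did not pass the test (adjusted p = 0.28, 0.68 and 0.16). PDIA6 lost the call under total-count scaling (0.25, adjusted p = 0.18), without endoderm replicate 3 (adjusted p = 0.051) and without any single hPSC library (adjusted p = 0.085 to 0.11). The sign of HSP90B1 and XBP1 depended on the scaling, with -0.20 and -0.08 under total-count scaling. A match describes the letters of the window only.

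Enzymes of cholesterol synthesis rose in many members: 15 of 26 rose and 0 fell (median 0.81), where 26.2% of all genes rose and 25.1% fell. Under total-count scaling 10 rose and 1 fell (median 0.33), where 1609 of all 11413 genes rose and 3750 fell. DHCR7, which makes cholesterol in the last step of the pathway, had 907, 352 and 455 CPM in the endoderm libraries and 164, 175 and 193 CPM in the hPSC libraries. Its groups did not overlap (log2 change 1.69, SE 0.33, adjusted p = 0.0025). MVD (1.83), an enzyme of the mevalonate steps, and LSS (1.46), which makes lanosterol, rose, as did INSIG1 (1.26), the ER protein that holds back the SREBP regulators. In the glycolysis list 3 of 22 rose and 5 fell, where 26.2% of all genes rose and 25.1% fell; total-count scaling gave 13 falls, and so did the fit without endoderm replicate 1. The glucose transporter gene SLC2A3 had 10792, 7128 and 9219 CPM in the endoderm libraries and 1233, 1385 and 1472 CPM in the hPSC libraries, with a change of 2.73. The lactate exporter gene SLC16A3 rose (2.50), as did PFKL (1.31), the liver form of phosphofructokinase. LDHA, which makes lactate, had 150.2, 110.1 and 107 CPM in the endoderm libraries and 469, 369 and 435 CPM in the hPSC libraries and fell (-1.79), as did HK2, a hexokinase (-1.52), and SLC16A1, a lactate and pyruvate transporter (-1.08).

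Noncoding RNAs of the list had more falls than rises, and falls among chromatin regulators were near the share of all genes. Of 18 noncoding RNAs tested 8 fell and 1 rose (median -0.51), where 25.1% of all genes fell and 26.2% rose. Without endoderm replicate 1, 9 fell and 3 rose. Beside ESRG, LINC00678 (-3.46), SNHG14, the host transcript of the Prader-Willi snoRNAs (-1.89), OIP5-AS1 (-1.29) and TUG1 (-1.11) fell. The library kit does not mark strand, so reads of OIP5-AS1 and of a gene it overlaps cannot be told apart. MALAT1, the RNA of nuclear speckles, had 44.1, 296 and 95.5 CPM in the endoderm libraries and 65.2, 89.8 and 69.1 CPM in the hPSC libraries. Its endoderm values were spread from below to above all hPSC values, with replicate 2 the highest, and the change did not pass (0.96, adjusted p = 0.16). MALAT1 passed as a rise without endoderm replicate 1 (edgeR, 1.39, adjusted p = 7.0e-04). It also passed in a fit of all 24 libraries of both cell types (0.96, adjusted p = 0.047). Without endoderm replicate 2 its change was -0.092. In the chromatin list 7 of 22 fell and 1 rose, where 25.1% of all genes fell and 26.2% rose; without endoderm replicate 1, 10 fell and 3 rose. DNMT3A (-0.82), the Polycomb subunit gene SUZ12 (-1.15) and TET1, which oxidises methylcytosine (-0.97), fell beside DNMT3B, and the Polycomb gene RING1 rose (0.88). HELLS, a remodeller needed for DNA methylation, had 3.78, 12.1 and 10.7 CPM in the endoderm libraries and 183, 197 and 147 CPM in the hPSC libraries, but on transcripts found in both tables its change was 2.23 (adjusted p = 0.088) in place of -4.30, and that of DNMT3A was -0.04. SUZ12 and TET1 lost the call without hPSC replicate 2 (adjusted p = 0.066 and 0.077), and RING1, the one rise of the list, lost it under total-count scaling (0.47, adjusted p = 0.13).

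Markers of other lineages were checked beside these changes. Of 6 mesoderm markers 5 were listed in endoderm, at a summed 70.5 to 92.5 TPM, and 3 in hPSC, at 95.3 to 120.6 TPM, and MESP1 was in neither. KDR, a receptor of vascular endothelial growth factor that hPSC also transcribe, made up most of the hPSC sum and fell (153, 141 and 166 against 343, 434 and 391 CPM, log2 change -1.35). PDGFRA, a receptor of mesoderm and primitive endoderm, had 25.9, 25.6 and 33.3 CPM in the endoderm libraries and 0.819, 1.32 and 1.58 CPM in the hPSC libraries and rose (4.50). HAND1, a mesoderm and extraembryonic factor, stood in the endoderm table alone (34.6, 25.1 and 32.8 TPM). Of 5 neuroectoderm markers only PAX6 was listed, in endoderm, at 0.500 to 1.06 TPM. Of 5 extraembryonic markers, GATA3 (35.9, 42.2 and 43.0 TPM) and TFAP2A (9.01, 12.7 and 13.6 TPM) were listed in endoderm alone and KRT7 in hPSC alone; CGA and SOX7 were in neither. In the longer mesoderm list 6 of 8 tested genes rose and 1 fell, where 26.2% of all genes rose and 25.1% fell. HAPLN1 (5.73), which crosslinks hyaluronan, was among the rises. In the longer neuroectoderm list of 22 genes 2 were tested, NES and CDH2, and both rose (median 2.18). Of its other genes, 2 stood in the endoderm table alone, 6 in the hPSC table alone and 12 in neither. Of the 3 tested genes of the later endoderm and liver list, APOE (11453, 7123 and 6641 against 1989, 2462 and 2544 CPM) and APOC1 (3.41) rose and ANXA4 did not pass the test. The part that cells of other lineages have in the results was not tested.

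**Figure D3:**
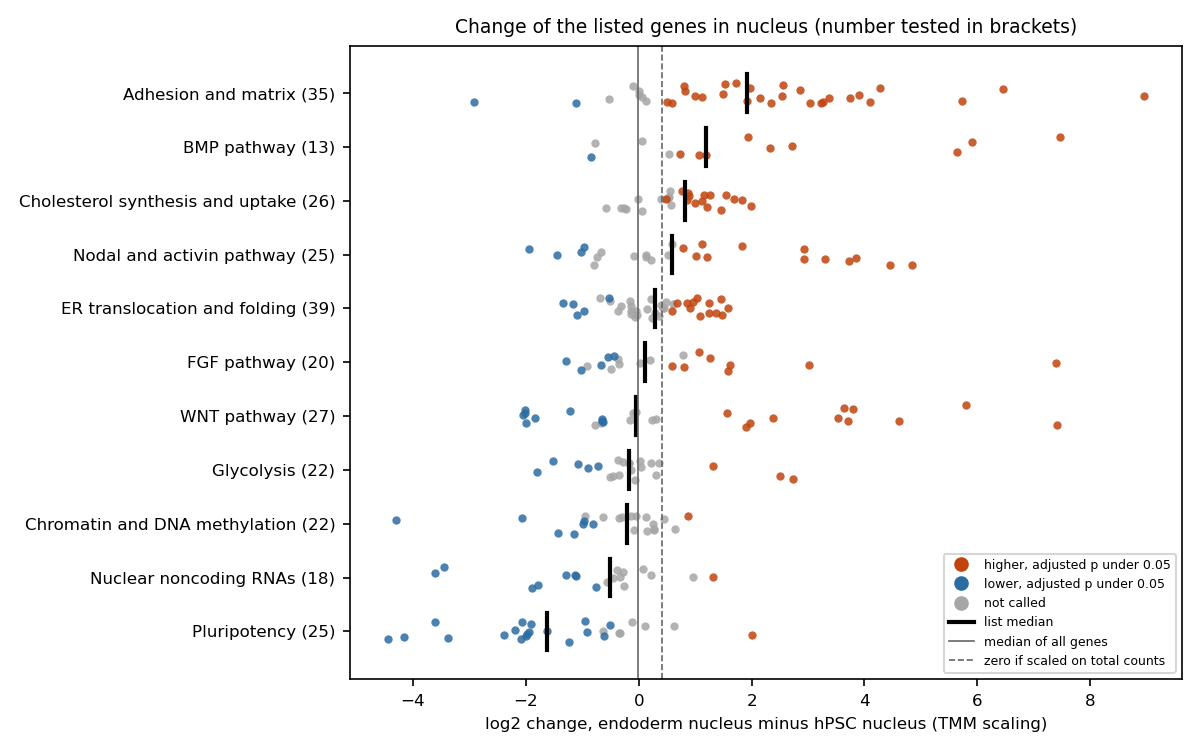
Log2 change in nucleus, endoderm minus hPSC, of each tested gene of 11 lists; orange marks rises and blue falls with an adjusted p under 0.05 (edgeR), grey the rest. The black bars are list medians, from 1.92 for adhesion and matrix to -1.63 for pluripotency, the thin line is the median of all genes and the dashed line shows where zero would lie if libraries were scaled on total counts.

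The 12 largest rises with at least 10 CPM in endoderm and no overlap between the groups were BMP6, RASGEF1B, CST1, TBX3, GJB1, VTN, OR4F16, TTN, B4GALT5, PTH1R, MSX2 and COL9A2. BMP6, a ligand of the BMP family, had 70.7, 73.1 and 73.0 CPM in endoderm and no count in hPSC, at least 379-fold higher against a floor of 3 counts per library. RASGEF1B was at least 85.8-fold higher by the same floor. Among the listed rises, BMP6, RASGEF1B, OR4F16, TTN, B4GALT5 and PTH1R had no transcript in common between the tables. For them the transcript set and the cell type cannot be told apart. CST1, a secreted cysteine protease inhibitor, had 1232, 689 and 641 CPM in the endoderm libraries and 0.378, 0.624 and 0.758 CPM in the hPSC libraries. TBX3, a T-box factor, had 129, 146 and 189 CPM in the endoderm libraries and 0.126, 0.208 and 0.117 CPM in the hPSC libraries, and COL9A2, a collagen IX chain, had 2421, 1443 and 1397 CPM in the endoderm libraries and 8.38, 12.5 and 9.34 CPM in the hPSC libraries. Lack of overlap and a large change were conditions of this list and are not results about these genes. VTN, the adhesion protein vitronectin (8.96), and the gap junction gene GJB1 (9.03) are also genes of liver. OR4F16 has near-identical copies in the genome, so its counts are uncertain; its groups differed 685-fold with 1 count in hPSC (95% exact counting interval 122 to 27122).

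The 12 largest falls were MIAT, DOT1L, UBR1, RAD52, SLC9A7, PTPN9, POLQ, SIRPA, PLPPR3, LRRTM4, SORBS2 and BDP1. MIAT, a noncoding RNA of pluripotent and neural cells, had 297, 342 and 284 CPM in hPSC and no count in endoderm, at least 1159-fold lower, and DOT1L, the histone H3 lysine methyltransferase, had 153, 183 and 167 CPM against a single count in endoderm. UBR1 and RAD52 had no count in endoderm (at least 76.0-fold and 52.5-fold lower). Each of the 12 had 1 transcript in the endoderm table, 1 to 7 in the hPSC table and none in common. The share of called genes with a transcript in both tables went down as the change went up: it was 76.7% of all rises and 68.7% of all falls, 44.9% and 24.1% of those beyond a log2 change of 3, and 29.1% and 8.05% of those beyond 5, against 77.1% of all genes tested. For such genes the transcript set and the cell type cannot be told apart. Counting only transcripts found in both tables, the test called 3395 of 8750 genes (38.8%), 21.1% higher and 17.7% lower. Of the genes tested both ways, 2957 were called both ways, 2880 of them in the same direction and 77 in the opposite one.

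**Figure D4:**
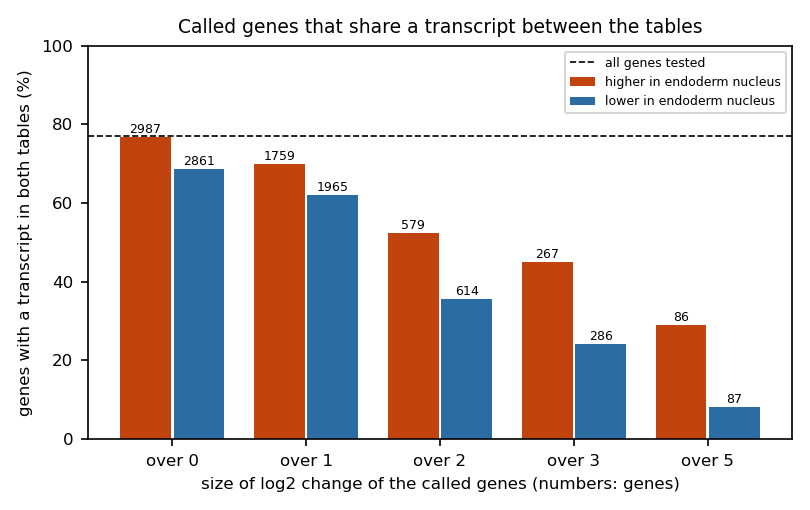
Share of called genes, in percent, that have at least 1 Ensembl transcript in both tables, by the size of the log2 change, for rises (orange) and falls (blue), with the number of genes above each bar. The share goes from 76.7% to 29.1% in rises and from 68.7% to 8.05% in falls; the dashed line is 77.1%, the share among all genes tested.

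The same comparison in cytoplasm was set beside that in nucleus. In a fit of the 12 nucleus and cytoplasm libraries of both cell types, 2374 of 11566 genes rose in cytoplasm (20.5%) and 2265 fell (19.6%), 40.1% in all. The overlap sets the 5848 nucleus calls of the fit of 6 libraries against the cytoplasm calls of the fit of 12, so the fits differ. Among the 11413 genes in both fits, 4576 were called in cytoplasm. Of the genes called in nucleus 49.1% were called in cytoplasm in the same direction, which is 62.7% of these cytoplasm calls. In opposite directions 143 genes were called. The change itself differed between the fractions for 3033 genes (26.2%), being more positive in nucleus for 1416 (12.2%) and more negative for 1617 (14.0%). All 25 collagen genes tested were higher in nucleus than in cytoplasm in hPSC, with a median log2 difference of 3.61, and in endoderm, with 4.42; the shares of all genes are 29.4% and 35.3%. Their rise in endoderm was larger in nucleus (20 of 25 rose, median 2.09) than in cytoplasm (15 rose, median 0.99). Over all genes 26.2% rose in nucleus and 20.5% in cytoplasm. The difference between the fractions passed the test as more positive in nucleus for 14 collagen genes and as more negative for 1. All 15 mitochondrially encoded genes were also higher in nucleus than in cytoplasm, with a median log2 difference of 4.94 in hPSC and 5.93 in endoderm.

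Ribosomal protein genes had the opposite placement. Of 83 genes of the cytosolic ribosome (RPL and RPS), 82 were lower in nucleus than in cytoplasm in hPSC and 69 in endoderm, where the shares of all genes are 30.8% and 34.0%. In endoderm against hPSC, 25 of the 83 fell in nucleus (median -0.40) and 54 fell in cytoplasm (median -0.80), and none rose in either. Of all genes 25.1% fell in nucleus and 19.6% in cytoplasm, so the nucleus count was near that share. Total-count scaling gave 70 falls in nucleus and the fit without endoderm replicate 1 gave 65. Of 78 mitochondrial ribosomal protein genes 23 fell in nucleus and 2 rose, where 25.1% of all genes fell; without endoderm replicate 1, 42 fell and 5 rose, and under total-count scaling 41 and 0. Among 170 genes of plasma membrane and organelle transporters (SLC families other than SLC25), 152 were higher in nucleus than in cytoplasm in hPSC and 136 in endoderm. The shares of all genes are 29.4% and 35.3%. The change of these transporter genes was split in nucleus, with 61 rises and 38 falls (under total-count scaling 38 and 58). It was more one-sided in cytoplasm, with 74 and 20. Of all genes 26.2% rose and 25.1% fell in nucleus, and 20.5% and 19.6% in cytoplasm. These families were read off gene symbols after the values were seen.

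**Figure D5:**
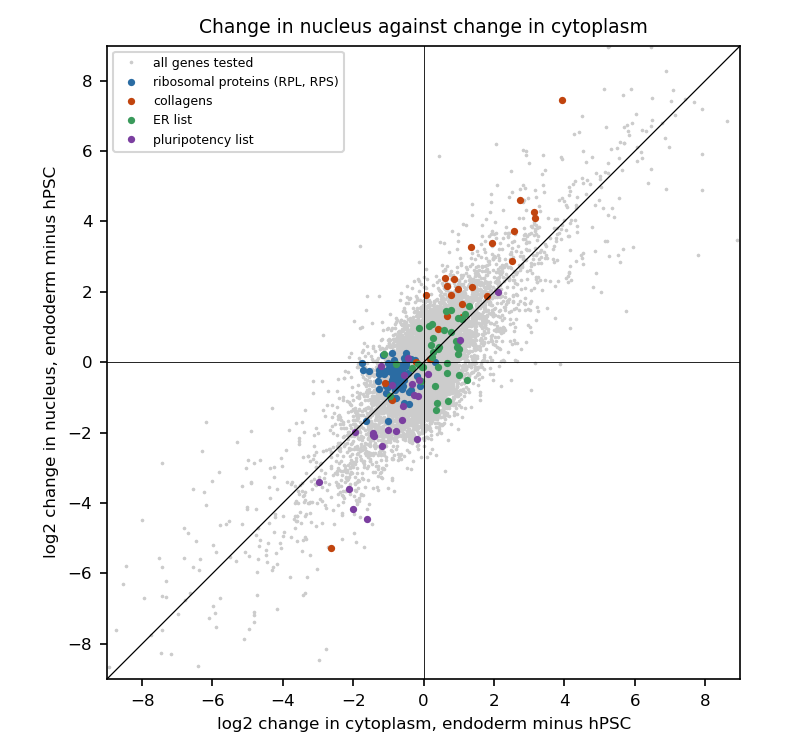
Log2 change, endoderm minus hPSC, in nucleus (vertical axis, fit of 6 libraries) against cytoplasm (horizontal axis, fit of 12 libraries), 1 point per gene, with the line of equal change; 29 genes lie outside the axes. Collagens lie mostly above the line, with a median of 2.09 in nucleus and 0.99 in cytoplasm, and ribosomal proteins lie below zero on both axes in the median (-0.40 and -0.80).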

How the data were processed

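Libraries were made with a NEBNext Ultra RNA kit and sequenced on an Illumina NovaSeq, per the labels. The authors deposited counts and TPM per transcript, 1 table per cell type; STAR, RSEM and hg38 are named in the submitters' processing notes, without versions, and the strand setting is not given in the sources used here. Deposited counts were whole numbers and were summed per Ensembl gene without version; rows naming no gene held 0.34% to 3.88% of the counts and were left out, and 1 column of per-sample values that matched no sample was not used. The 2 tables were joined on gene and filtered with filterByExpr (minimum count 10). edgeR 4.0.16 (R 4.3.3) with TMM factors and the quasi-likelihood F test was fitted to the 6 libraries; p-values were Benjamini-Hochberg adjusted over all genes and called under 0.05. The difference between fractions was an interaction term in a fit of 12 libraries. Alternatives used DESeq2 1.42.0, limma 3.58.1 on the deposited TPM, other scalings, filters and samples. Floors are 3 counts per library; floors and counting intervals cover counting error only.

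The comparison and the gene lists were chosen with earlier results of these data known. Named genes were the 12 largest rises and falls, members of the lists, the 5 largest differences between fractions in each direction, and the 6 highest genes of 1 table. In data simulated from these libraries, 200 genes were changed. With 11413 genes, the nucleus fit found 40% of 2-fold and 97% of 4-fold changes, and 8.05% of its calls were false. With 11566 genes, the interaction fit found 18% and 93%, and 5.93% of its calls were false. In the data themselves 51.2% of the genes were called in nucleus, so these rates need not hold there. Promoter sequences are from RefSeq (GRCh38.p14). Some genes that the rule names are not reported here.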

Additional observations from a re-analysis of the deposited data

Results flagged for a closer look

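For 10 genes the change from hPSC to endoderm differed between nucleus and cytoplasm by an interaction test (edgeR, 12 libraries); they are the 5 most positive and 5 most negative called differences with a symbol and at least 10 CPM on average. VWF, the clotting and adhesion protein of endothelium, had 232, 72.0 and 72.9 CPM in endoderm nucleus, 2.47, 2.22 and 1.59 in hPSC nucleus, 1.43, 1.56 and 2.01 in endoderm cytoplasm and 1.50, 1.30 and 0.985 in hPSC cytoplasm, so that the change was 5.48 log2 units more positive in nucleus (adjusted p = 3.5e-04). Its values are high in the 3 endoderm nucleus libraries and highest in replicate 1. The difference was 4.60 for the mitochondrial carrier gene SLC25A33 and 3.69 for ZNF580. YES1, a kinase of the SRC family, had 8.25, 15.4 and 15.9 CPM in endoderm nucleus and 60.3, 61.4 and 59.1 in hPSC nucleus, but 87.4, 86.1 and 69.8 in endoderm cytoplasm and 41.3, 54.4 and 54.3 in hPSC cytoplasm, a difference of -2.88 (adjusted p = 1.4e-04). TCAF1 had a difference of -2.95, ZNF260 of -4.71 and HMCN1, a matrix protein gene, of -3.15. SMCHD1, a chromatin protein, was under 1 CPM in all hPSC libraries and had 4.95, 13.5 and 11.4 CPM in endoderm nucleus and 46.0, 49.9 and 36.1 in endoderm cytoplasm, a difference of -5.53. SLX1A (8.76, adjusted p = 0.023) and ANGEL1 (6.38, adjusted p = 0.046) have no count in endoderm cytoplasm; SLX1A had 14.5, 0.318 and 0 CPM in endoderm nucleus, so its value rests on replicate 1, and without that library it was 3.83 (adjusted p = 0.073). ANGEL1 lost the call without any single cytoplasm or hPSC nucleus library. SLX1A has a near-identical copy in the genome. Of the 10 genes, 6 have no transcript in both tables, so for these transcript set and cell type cannot be told apart.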

How the results depend on the processing

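The number of calls kept within 1.5 times of 5848 under every setting except 2: 3395 on transcripts found in both tables and 3724 with a 2-fold minimum. The direction was less stable than the number: rises were 1609 with total counts, 1738, 1774 and 1698 with limma-trend on TPM plus 1, the same without a filter and TPM plus 0.1, 1846 on transcripts found in both tables and 1759 with a 2-fold minimum, and falls were 1549 on transcripts found in both tables. Leaving out 1 library gave 4207 to 7215 calls, 2183 to 3543 rises and 2013 to 3672 falls. Differences between the fractions numbered 1218 on transcripts found in both tables and 1515 to 3672 without 1 library, with 1787 and 1515 without endoderm cytoplasm replicates 1 and 2. The difference in mitochondrial share ran from -4.39 to -0.385 percentage points without 1 library. Of 146 named genes 137 were called, and 115 of these kept direction and call under every setting other than the 2-fold minimum. On transcripts found in both tables CD24 turned to 4.35 and HELLS to 2.23. Without 1 library MALAT1 ran from -0.092 to 1.39, CDH1 from -0.22 to 0.014 and HSP90B1 from -0.14 to 0.39, and the sign turned without endoderm replicate 2. HSP90B1 was -0.29 with TPM plus 0.1, -0.29 with TPM plus 1 and -0.29 without the filter, -0.20 with total counts and -0.039 with upper-quartile factors. XBP1 was -0.0072 with TPM plus 0.1, -0.0072 with TPM plus 1, with and without the filter, and -0.075 with total counts. The cause of these changes was not tested.

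Replicate numbers were not used to pair the samples in the main fit. Deviations of same-numbered libraries from their group means correlated at r = 0.0329, 0.228 and -0.176 across genes. A fit with the replicate number as a block gave 5639 calls, 2736 rises and 2903 falls; SALL4 and PDIA6 lost the call in nucleus, and ANGEL1 lost it for the difference between fractions. Endoderm replicates 1 and 3 and hPSC replicate 3 correlated best with a library of another number. Replicate 2 of both groups and hPSC replicate 1 correlated best with their own number. With 3 libraries per group these values cannot show whether same-numbered libraries were handled together.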
